A study of Mus musculus with 4 samples.

Results

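The antioxidant and glutathione genes described here are 45 genes chosen by symbol for what their proteins do, out of 32285 genes in the deposited count matrices, and all 45 were found under 1 identifier each. The rule that picks them uses no measured value, though the list was chosen with earlier results of these data known. They were followed in single-cell RNA-seq of mouse hindlimb muscle (tibialis anterior and gastrocnemius) in 4 groups of 1 library each. All mice carried the S100GFP transgene, whose GFP is under the S100b promoter and marks Schwann cells together with some other cells, and all were 2 months old and male. The groups were WT (genotype S100GFPtg) and Sod1KO (genotype S100GFPtg Sod1-/-, with both alleles of the cytosolic copper-zinc superoxide dismutase disrupted), each sorted into GFP+ and GFP- cells. Cells of 4 mice were pooled per genotype, so a library stands for a pool, both sorts of a genotype come from the same pooled mice, and no spread between animals can be had. Every interval below is a 95% interval that covers counting error only, and no test between genotypes was made. Where values are given for all 4 libraries, their order is WT GFP+, Sod1KO GFP+, WT GFP-, Sod1KO GFP-.

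Reactive oxygen species are cleared in steps. Superoxide dismutases turn superoxide into hydrogen peroxide, which catalase (Cat) splits into water and oxygen. The peroxiredoxins (Prdx) and the glutathione peroxidases (Gpx) remove peroxide with electrons from thioredoxin (Txn) or from glutathione. Thioredoxin reductases (Txnrd), glutathione reductase (Gsr) and the NADPH-producing enzyme glucose-6-phosphate dehydrogenase (G6pdx) supply those electrons. The cystine transporter subunit Slc7a11, glutamate-cysteine ligase (Gclc, its catalytic subunit, and Gclm, its modifier) and glutathione synthetase (Gss) make glutathione, which glutathione S-transferases (Gst and Mgst) attach to reactive compounds. The transcription factor NRF2 (Nfe2l2) is held down by KEAP1 and, once freed, binds antioxidant response elements near genes such as Nqo1, Hmox1, Gclm, Srxn1 and Txnrd1. Ferritin (Fth1 and Ftl1) stores iron, which would otherwise feed hydroxyl radical formation.

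The antioxidant response element is shown for the members because NRF2, a member, acts through it and several members are known NRF2 targets. Its core, TGACNNNGC, was searched on both strands of the RefSeq promoter windows of build GRCm38.p6 (250 bases before to 50 after a transcript start), and 40 of the 45 members had a window. The core was found for 8 of these 40 members (20.0%), against 3781 of 27025 genes with a window (14.0%), or 12.4% of all windows. The 8 stretches of 29 bases follow 5′ to 3′ on the strand given, with the core in capitals. That of Nfe2l2 is at chr2:75704885-75704913 (- strand), that of Srxn1 at chr2:152105542-152105570 (-) and that of Gclm at chr3:122245413-122245441 (-). That of Prdx1 is at chr4:116685456-116685484 (-), that of Sesn2 at chr4:132510474-132510502 (-) and that of Mgst1 at chr6:138140461-138140489 (-). That of Txnrd1 is at chr10:82859104-82859132 (-) and that of G6pdx at chrX:74428919-74428947 (+). The Srxn1 core starts 28 bases after the transcript start, and the other cores lie before theirs, from 36 bases (Sesn2) to 240 bases (Nfe2l2). The Prdx1 core overlaps the letters TGACTCA, which the factor AP-1 is known to bind. No window was given for Prdx6, Gsr, Gclc, Hmox1 and Gsta4.
Nfe2l2: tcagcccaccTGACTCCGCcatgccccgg
Srxn1: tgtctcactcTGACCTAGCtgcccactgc
Gclm: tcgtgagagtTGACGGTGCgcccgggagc
Prdx1: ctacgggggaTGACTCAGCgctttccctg
Sesn2: cgcagcgggcTGACAGAGCcgggcgagcg
Mgst1: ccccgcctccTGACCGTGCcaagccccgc
Txnrd1: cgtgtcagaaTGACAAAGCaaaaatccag
G6pdx: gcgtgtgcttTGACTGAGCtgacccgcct
A match of these letters is a description of the window and not a measured binding site.

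After filters and doublet removal the libraries held 4557 (WT GFP+), 5925 (Sod1KO GFP+), 1638 (WT GFP-) and 5143 (Sod1KO GFP-) cells, with median depths of 8023.5 to 14683 UMIs a cell. Any pair of libraries shared at most 13 barcodes. Cells were clustered without the members, and clusters were named from marker lists, so that a class called mSC-like (for myelinating Schwann cells) or tSC-like (for terminal and further nonmyelinating Schwann cells) rests on markers that are not members. Between 20.9% and 54.2% of a library's cells, the most in WT GFP-, stayed unnamed, and the WT GFP- library held at least 50 cells only of the endothelial-like and pericyte-like classes. Sod1 itself stood at 91.0, 98.4, 124 and 113 UMIs per 1000000 (CPM) in the 4 libraries, so over all cells the library labelled Sod1KO held more of it in GFP+ and less in GFP-. Within 3 classes it was lower in the libraries labelled Sod1KO, with 78.3 and 67.5 CPM for mSC-like and 82.0 and 71.8 for tSC-like cells of WT and Sod1KO GFP+. Endothelial-like cells had 142 and 117 CPM of it in GFP+ and 129.8 and 125 in GFP-. Whether the counted 3′ part of the transcript lies in the deleted stretch was not stated in the labels or the study's methods, so these counts do not check the labels.

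All 45 members had more than 50 UMIs in every library, the lowest being Txnrd2 with 141 UMIs in WT GFP-. Together they took 1.14%, 1.08%, 0.942% and 0.926% of the UMIs of the 4 libraries. Ferritin alone made up 54.6% and 53.1% of these UMIs in the GFP+ libraries and 40.5% and 44.8% in the GFP- libraries. The share of the whole list, ferritin included, thus lay higher in the GFP+ sort of both genotypes. Within a sort the genotypes were closer to each other than the sorts were. The higher GFP+ share lay in ferritin. Without ferritin, the summed share of the remaining members was not higher in GFP+ than in GFP- in WT or in Sod1KO.

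The members differed widely between cell classes. Over the 10 classes with at least 30 cells in both GFP+ libraries, 31 of 45 members had the same class of highest CPM in both, where 61.9% of all genes with enough UMIs did. That class was macrophage-like for 8 members, satellite-like (muscle stem cell) for 4, smooth muscle-like for 4, mSC-like, tSC-like and mesenchymal-like for 3 each, pericyte-like and perineurial-like for 2 each, and endothelial-like and tenocyte-like for 1 each. Among members with more than 3 UMIs in their lowest class of WT GFP+, the highest class exceeded the lowest over 10-fold for 10. It did so by under 3-fold for 12. Members with fewer UMIs there were left out of both counts, among them Slc7a11 (832 CPM in the highest class, 0 in the lowest) and Gsta4 (152 and 0.399). The counting intervals of the 2 highest classes overlapped for 22 members in WT GFP+ and 23 in Sod1KO GFP+, so for these the first place is not set apart. The mSC-like class was the lowest for 8 members in each GFP+ library, and the tSC-like class for 0. The counts by fold, overlap and lowest class were not made over all genes, so whether they are particular to the members was not tested.

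**Figure D1:**
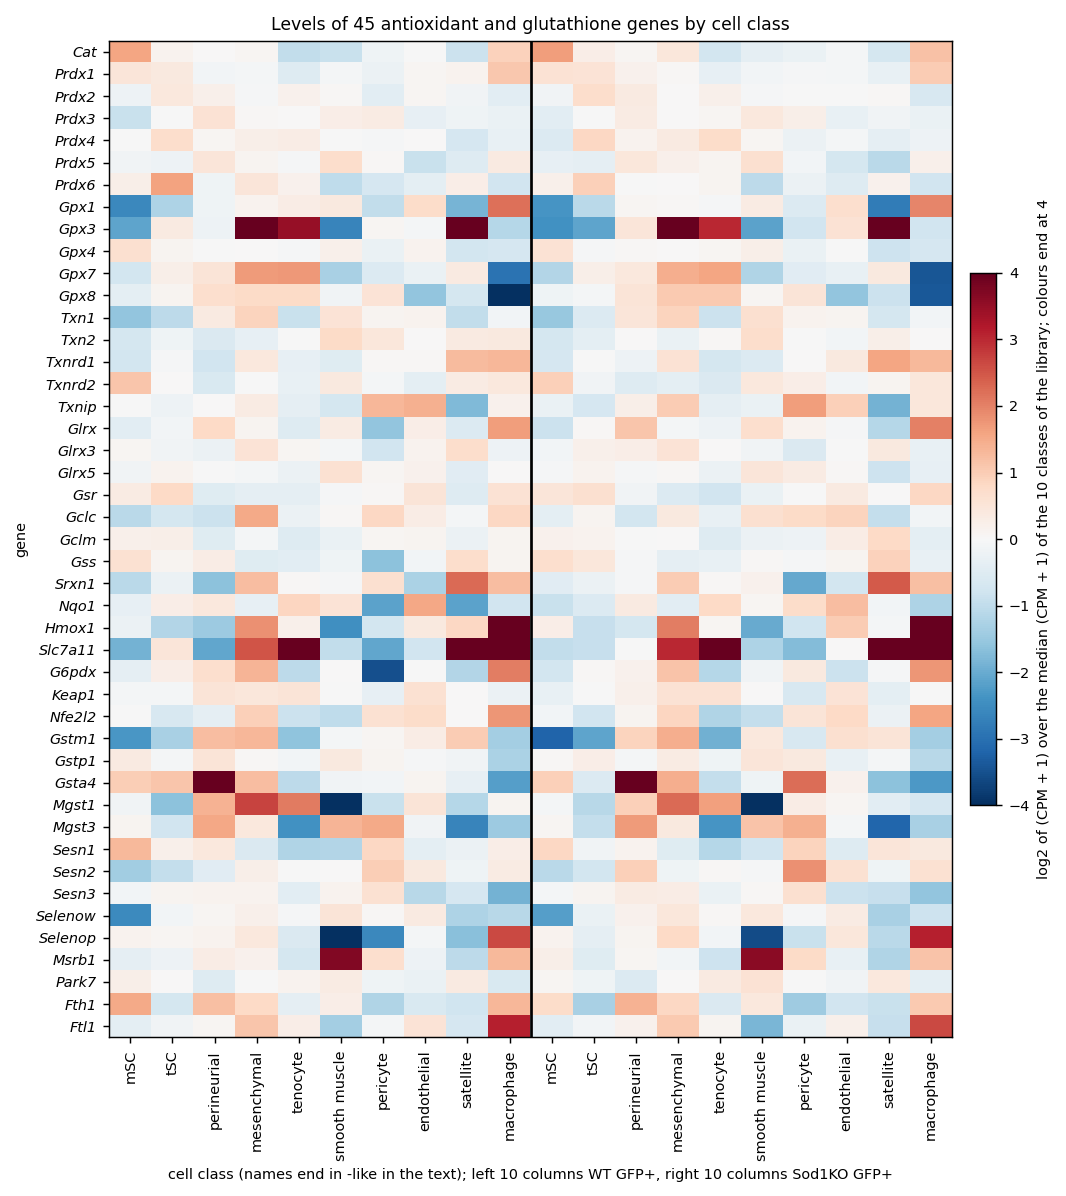
Levels of the 45 members (rows) in the 10 cell classes with at least 30 cells (columns), WT GFP+ on the left and Sod1KO GFP+ on the right, with the colour giving the log2 of (CPM + 1) over the median of the library's 10 classes. The left and right sides show like patterns for most genes, and 31 of 45 members had the same highest class in both.

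Among the peroxidases, Gpx1, the main cytosolic glutathione peroxidase, was highest in macrophage-like cells at 1067 CPM in WT GFP+, 954 in Sod1KO GFP+ and 702 in Sod1KO GFP-. In mSC-like cells Gpx1 stood at 37.5 and 46.3 CPM in WT and Sod1KO GFP+, and the intervals of the macrophage-like and mSC-like levels lay far apart in both. Gpx4, which reduces lipid peroxides in membranes, had its highest level in mSC-like cells, with 593 CPM in WT and 575 in Sod1KO GFP+, above the smooth muscle-like class at 444 and 448. Catalase was also highest in mSC-like cells, at 96.1 CPM (89.0 to 104) in WT and 84.9 (76.6 to 94.0) in Sod1KO GFP+, and lowest in tenocyte-like cells at 15.5 and 15.4.

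Gpx3, the secreted plasma glutathione peroxidase, was highest in satellite-like cells at 1435, 1413 and 1358 CPM in WT GFP+, Sod1KO GFP+ and Sod1KO GFP-. Mesenchymal-like cells followed at 739, 552, 1384 and 669 CPM in the 4 libraries, the WT GFP- value resting on 37 cells of which 1 gave 29.0% of the UMIs. In the other classes of the GFP+ libraries apart from tenocyte-like cells (171 and 178 CPM), Gpx3 stayed between 1.44 and 32.5 CPM. Prdx1 had its highest level in macrophage-like cells at 894 and 847 CPM in WT and Sod1KO GFP+ and its lowest in tenocyte-like cells at 300.4 and 331. Prdx2, Prdx4 and Prdx6 had their highest levels in tSC-like cells in both GFP+ libraries, Prdx6 at 283 CPM in WT and 194 in Sod1KO.

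Slc7a11, the cystine-importing subunit of system xc-, had its highest level in satellite-like cells. They stood at 832 CPM (752 to 917) in WT GFP+, 774 (707 to 845) in Sod1KO GFP+ and 760 (683 to 844) in Sod1KO GFP-. Macrophage-like cells of the GFP+ libraries followed at 121 and 117 CPM, and no UMI was seen in 77 macrophage-like cells of Sod1KO GFP- (exact Poisson upper bound 3.85 CPM). Tenocyte-like cells stood at 98.1 and 107 CPM and, being more numerous, held more of its UMIs (1485 and 2534 in WT and Sod1KO GFP+) than satellite-like cells (401 and 494). With every cell thinned to 1000 UMIs, 43.2% (16 of 37, exact binomial interval 27.1% to 60.5%), 50.0% (29 of 58, 36.6% to 63.4%) and 39.5% (15 of 38, 24.0% to 56.6%) of satellite-like cells had a Slc7a11 UMI in WT GFP+, Sod1KO GFP+ and Sod1KO GFP-. Endothelial-like cells, taken as the class that should lack it, had 0 of 325, 323, 516 and 1683 cells with a UMI in the 4 libraries, which by a floor of 3 cells allows shares of cells with a UMI, at this depth, of up to 0.923%, 0.929%, 0.581% and 0.178%. At most 3 cells of a class and library lay below that depth and were left out. Unthinned, the shares were 91.9%, 89.7% and 94.7% in satellite-like cells (median depths of 13320, 10659 and 11901.5 UMIs) and 2.15%, 1.55%, 0.775% and 0.415% in endothelial-like cells (11096, 10583, 10651 and 11907 UMIs). Srxn1, which reactivates over-oxidized peroxiredoxins, was also highest in satellite-like cells, at 87.1 and 90.8 CPM in WT and Sod1KO GFP+ and 64.4 in Sod1KO GFP-.

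Of the iron and heme genes, Ftl1 and Hmox1 were highest in macrophage-like cells. Ftl1, the ferritin light chain, reached 8474 CPM in WT GFP+, 7319 in Sod1KO GFP+ and 5660 in Sod1KO GFP- macrophage-like cells, and its lowest class was smooth muscle-like at 385 and 327 in the GFP+ libraries. Hmox1, the inducible heme oxygenase that releases iron from heme, stood at 560.2, 287 and 462 CPM in the macrophage-like cells of the same 3 libraries. After thinning, 23.3%, 22.5% and 31.2% of these cells had a Hmox1 UMI, against 1.49% and 1.83% of mSC-like cells in WT and Sod1KO GFP+ (unthinned 78.8%, 65.4% and 72.7% against 9.30% and 11.9%). Selenop, which carries selenium to other cells, was highest in macrophage-like cells too, at 2431 and 2209 CPM in the GFP+ libraries and 4715 in Sod1KO GFP-. Nfe2l2 had its highest level there as well, with 412, 348 and 318 CPM. Fth1, the ferritin heavy chain, had another order, with mSC-like cells first in WT GFP+ (9514 CPM) and perineurial-like cells first in Sod1KO GFP+ (9474 CPM).

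Other members were highest in mural, perineurial or mesenchymal classes. Msrb1, a methionine sulfoxide reductase, was highest in smooth muscle-like cells at 478, 466, 515 and 542 CPM in the 4 libraries, and after thinning 33.5% to 40.9% of these cells had a UMI against 2.51% and 4.26% of mSC-like cells (unthinned 94.4% to 100% against 15.2% and 23.4%). Gsta4, the transferase for the lipid peroxidation product 4-hydroxynonenal, was highest in perineurial-like cells at 152, 181 and 195 CPM in WT GFP+, Sod1KO GFP+ and Sod1KO GFP-. Mgst1, a microsomal transferase, was highest in mesenchymal-like cells at 316 and 286 CPM in the GFP+ libraries. Txn1, cytosolic thioredoxin, was highest in the same class at 732 and 720 CPM and lowest in mSC-like cells at 134 and 136. Prdx5, Txn2 and Glrx5 were highest in smooth muscle-like cells in both GFP+ libraries, at 227 and 230.4 CPM for Prdx5. Gpx7 and Gpx8 had their lowest levels in macrophage-like cells, Gpx8 at 1.20 and 5.34 CPM. Sesn2 and Sesn3 had their highest in pericyte-like cells of both GFP+ libraries, with intervals that overlapped those of the second class. Sesn2 rested there on 6 UMIs in WT and 7 in Sod1KO. Nqo1, a quinone reductase, had its highest GFP+ level in endothelial-like cells, at 12.0 and 13.3 CPM.

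**Figure D2:**
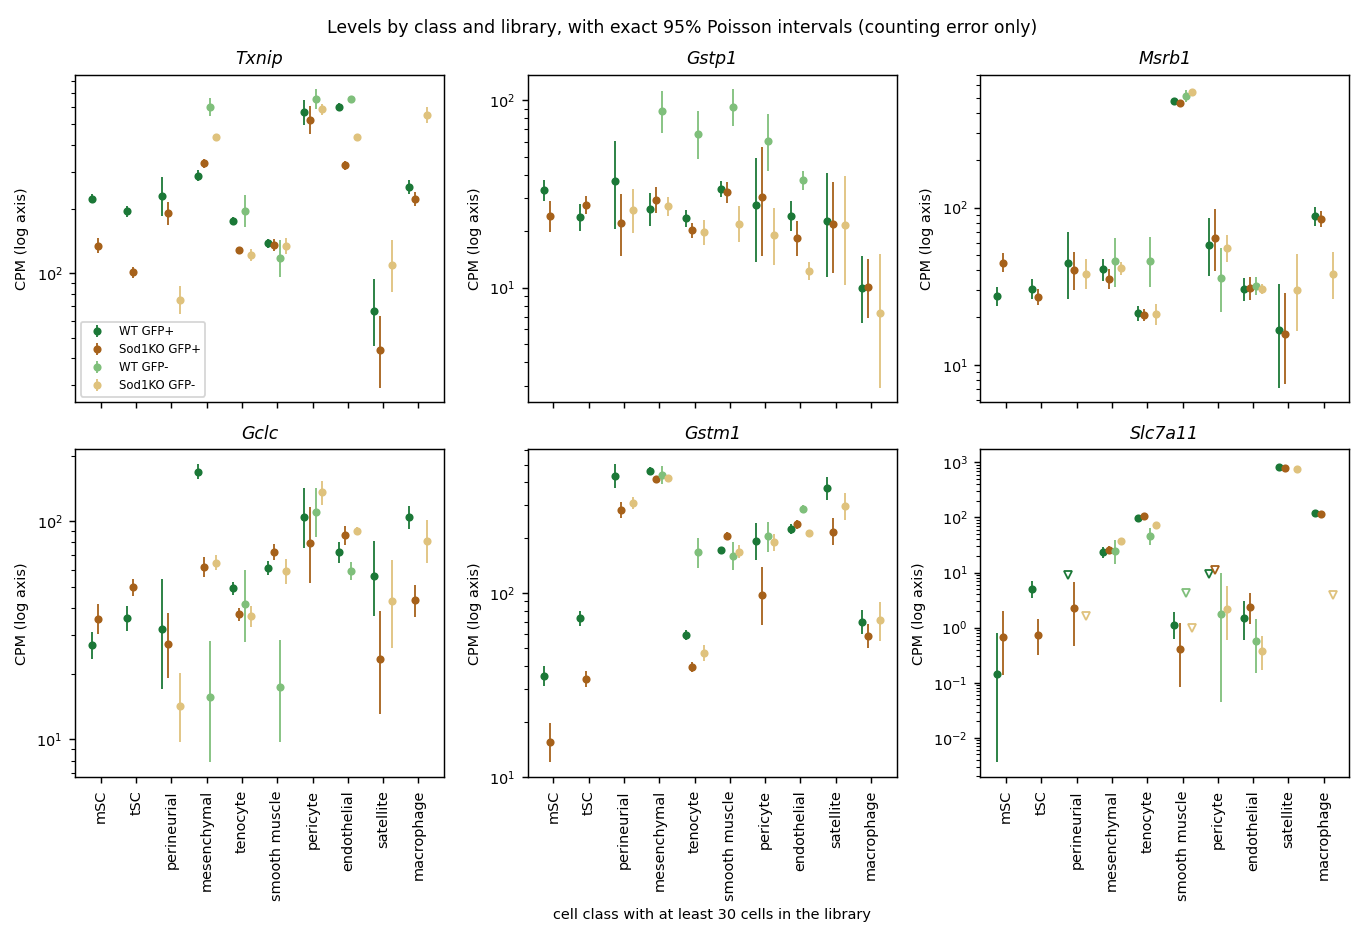
CPM of 6 members (Txnip, Gstp1, Msrb1, Gclc, Gstm1 and Slc7a11) on a log axis in each class with at least 30 cells, one point per library with its exact 95% Poisson interval (counting error only) and an open triangle at the upper bound where no UMI was seen. Slc7a11 is highest in satellite-like cells (760 to 832 CPM) and Msrb1 in smooth muscle-like cells (466 to 542 CPM) in each library that holds at least 30 of those cells.

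Between the Schwann classes, 9 of the 42 members with at least 50 UMIs lay more than 1.5-fold higher in tSC-like than in mSC-like cells in both GFP+ libraries, where 22.1% of all genes did, and 8 lay lower in both, where 12.4% did. The median log2 ratio of the members was 0.20 in WT and 0.18 in Sod1KO, and that of all genes 0.16 and 0.22. Among the 9 members higher in both, Selenow, a small selenoprotein, showed the widest step up. It had 87.9 CPM in mSC-like cells against 480.1 in tSC-like cells of WT (log2 ratio 2.45) and 104 against 401 in Sod1KO (1.95). Gpx1 had 37.5 and 98.5 CPM in the mSC-like and tSC-like cells of WT (1.39), and 46.3 and 114 in those of Sod1KO (1.31). Prdx2, Prdx4, Prdx6, Gpx7, Gstm1, Txnrd1 and G6pdx were the other members higher in tSC-like cells of both libraries. Fth1 was lower in tSC-like cells, at 2047 against 9514 CPM in WT (-2.22) and 1455 against 6030 in Sod1KO (-2.05). Cat (-1.48 and -1.42 in WT and Sod1KO), Txnrd2, the mitochondrial thioredoxin reductase (-1.22 and -1.17), and Hmox1 (-1.02 and -1.27) were lower as well, as were Mgst1, Mgst3, Sesn1 and Nfe2l2. The mSC-like cells of WT and Sod1KO had 120 and 107 CPM of Nfe2l2, and the tSC-like cells 76.5 and 66.7.

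Summed over all cells, few members differed by more than 1.5-fold between the genotypes. In the GFP+ sort 1 of 45 members was past 1.5-fold (2.22%), where 14.9% of all genes were, and in the GFP- sort 4 of 45 (8.89%), where 26.9% of all genes were. The median log2 ratio Sod1KO over WT of the members was 0.00 in GFP+ and 0.01 in GFP-, beside 0.00 and 0.03 for all genes. The count for GFP+ became 2 with median-of-ratios scaling or with per-cell means and 3 without doublet removal. Just under the fold in GFP+ lay Gpx7 (0.58) and Txnip (-0.58). A sum over all cells cannot tell fewer cells of a type from less RNA per cell.

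**Figure D3:**
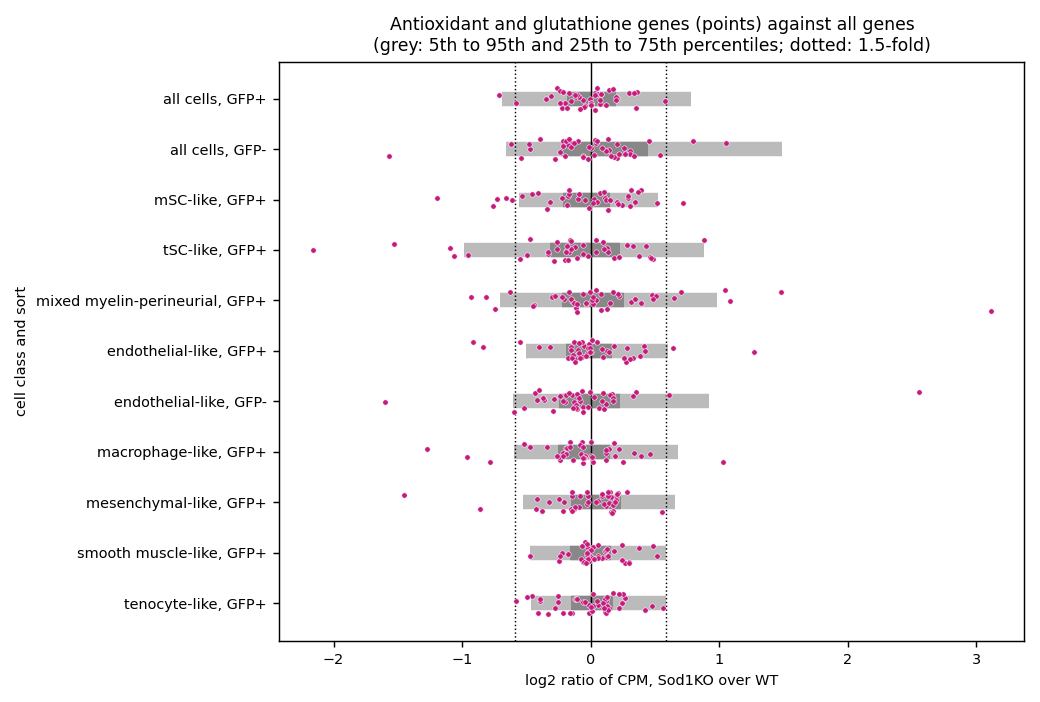
Log2 ratio Sod1KO over WT of each member (points) in each class and sort, over the 5th to 95th and 25th to 75th percentiles of all genes with enough UMIs (grey bars), with dotted lines at 1.5-fold. Over all cells of GFP+ and GFP- 1 and 4 of 45 members lie outside the dotted lines.

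The NRF2 branch showed no common direction. Nfe2l2 stood at 116, 105, 173 and 147 CPM in the 4 libraries, a log2 ratio of -0.15 in GFP+ and -0.23 in GFP-, and Keap1 at 35.9, 37.9, 50.4 and 41.7. Of 13 members taken as textbook NRF2 targets (Nqo1, Hmox1, Gclc, Gclm, Srxn1, Slc7a11, Txnrd1, Gsr, G6pdx, Prdx1, Txn1, Fth1 and Ftl1), 0 were past 1.5-fold in GFP+ (median 0.03) and 1, Slc7a11, in GFP- (median -0.02). In the same order Nqo1 had 5.78, 6.64, 8.68 and 8.61 CPM. Hmox1 had 41.0, 32.3, 45.5 and 34.6 CPM and was lower in the libraries labelled Sod1KO in both sorts, by less than 1.5-fold (-0.34 and -0.39). Gclc and Txnrd1 went in opposite or unequal directions, Gclc by -0.26 in GFP+ and 0.46 in GFP- and Txnrd1 by 0.03 and 0.34. Gclm, with log2 ratios of -0.20 and -0.06, Srxn1, with 0.14 and -0.22, and Prdx1, with 0.07 and -0.09, were all under 1.5-fold in both sorts. The same held for Gpx1 (-0.05 and -0.18), Gpx4 (-0.05 and -0.19), Fth1 (-0.21 and 0.20) and Ftl1 (0.20 and -0.02).

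The following members were also under the fold over all cells. The mitochondrial members Prdx3 (-0.11 in GFP+ and -0.21 in GFP-), Prdx5 (0.07 and 0.14), Txn2, the mitochondrial thioredoxin (-0.09 and -0.15), Txnrd2 (0.05 and 0.16) and Glrx5, which serves iron-sulfur cluster assembly (0.00 and 0.04), lay close to 0. So did Glrx3 (0.06 and 0.01), Gss (0.00 and 0.14), Sesn3 (0.08 and 0.05) and Park7, the redox-sensitive protein DJ-1 (0.03 and 0.09). Prdx4 (0.35 and 0.31), Gpx7 (0.58 and 0.31) and Gpx8 (0.21 and 0.26) had ratios above 0 by less than 1.5-fold. Prdx4 held 98.2, 125, 71.8 and 88.7 CPM, Gpx7 41.4, 61.9, 32.5 and 40.3, and Gpx8 89.2, 103, 55.7 and 66.7 in the 4 libraries. Gpx7 was highest in tenocyte-like cells, which numbered 502 and 1033 in WT and Sod1KO GFP+ and 46 and 353 in GFP-, and the part of these numbers was not tested. Gpx8 had 78.4 CPM in WT and 62.3 in Sod1KO tSC-like cells. Gstm1 (-0.18 and -0.54) and Selenop (-0.24 and -0.48) were lower in both sorts, by less than 1.5-fold.

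The 4 members past the fold in GFP- were Slc7a11 and Mgst1, higher in the library labelled Sod1KO, and Gstp1 and Txnip, lower there. Slc7a11 had 8.78 CPM in WT GFP- and 18.2 in Sod1KO GFP- (1.05, interval 0.83 to 1.29), with 16.5% of the WT UMIs in 1 cell, and 34.3 and 43.2 CPM in the GFP+ libraries (0.34). Mgst1 had 40.2 and 69.7 CPM in GFP- (0.79, 0.69 to 0.90) and 100.1 and 109 in GFP+ (0.12). Mesenchymal-like cells, the highest class of Mgst1, were 37 of the 1638 cells of WT GFP- and 634 of the 5143 of Sod1KO GFP-, and tenocyte-like cells, which also held Slc7a11, were 46 and 353. The part of these shares in the 2 ratios was not tested.

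Gstp1, the pi-class glutathione transferase, was the member with the widest step in GFP-, and the step was found in each of the 5 classes with at least 30 cells in both GFP- libraries. Over all cells of the 4 libraries it had 30.8, 28.3, 55.3 and 18.7 CPM (GFP- log2 ratio -1.57, -1.68 to -1.45; GFP+ -0.12). WT GFP- was the highest and Sod1KO GFP- the lowest of the 4. In that sort the log2 ratio was -1.60 in endothelial-like (37.4 and 12.3 CPM) and -1.67 in pericyte-like cells (60.6 and 19.1). In classes with 36 to 46 WT GFP- cells it was -1.68 in mesenchymal-like, -1.74 in tenocyte-like and -2.06 in smooth muscle-like cells. Different clusters made up the tenocyte-like class there, since 34 of the 46 WT GFP- cells lay in cluster 34, with 0 cells of Sod1KO GFP-, and 323 of the 353 Sod1KO GFP- cells lay in cluster 0, with 9 of WT GFP-. The unnamed clusters 19, 29 and 35 also held mostly WT GFP- cells (221, 123 and 25, beside 13, 1 and 0 of Sod1KO GFP-). The near-identical Gstp2, which could take or give reads, had 3.14 CPM in WT GFP- and 1.74 in Sod1KO GFP-, and 2.00 and 1.88 in the GFP+ libraries. Counts of such copies are uncertain, since reads could be split between them.

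Msrb1 was the 1 member past 1.5-fold over all GFP+ cells, and the share of smooth muscle-like cells moved with it. It had 115 CPM in WT GFP+ and 70.0 in Sod1KO GFP+ (-0.71, -0.76 to -0.66), and 62.6 and 63.6 in GFP- (0.02). Smooth muscle-like cells made up 12.2% and 6.63% of the cells of these GFP+ libraries and gave 72.9% and 54.5% of the Msrb1 UMIs. Within that class its level was 478 and 466 CPM (-0.04), and without that class the libraries held 37.6 and 34.6 CPM. The all-cell ratio was under the fold with per-cell means (-0.41) and with the stricter cell filter of over 500 genes and under 5% mitochondrial UMIs (-0.37).

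Txnip, the thioredoxin-binding protein that also restrains glucose uptake, was lower in the libraries labelled Sod1KO in both sorts. It stood at 251 CPM in WT GFP+ and 167 in Sod1KO GFP+ (-0.58, -0.61 to -0.55), and at 569 in WT GFP- and 369 in Sod1KO GFP- (-0.62, -0.65 to -0.59). In GFP+ the ratio was widest in tSC-like (-0.95), mixed myelin-perineurial (-0.93), endothelial-like (-0.92) and mSC-like cells (-0.73). It was near 0 in smooth muscle-like (138 and 136 CPM, -0.03) and pericyte-like cells (568 and 526, -0.11), and mesenchymal-like cells held 287 in WT and 328 CPM in Sod1KO GFP+ (0.19, 0.08 to 0.30). The difference was therefore not shared by all classes. Over all GFP- cells it fell under the fold with median-of-ratios scaling (-0.58) and with per-cell means (-0.43).

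Prdx2, a peroxiredoxin abundant in neurons and red cells, stayed under 1.5-fold over all cells. The 4 libraries held 200.5, 257, 179 and 206 CPM, a log2 ratio of 0.36 (0.33 to 0.39) in GFP+ and 0.20 (0.15 to 0.26) in GFP-. Among GFP+ classes the log2 ratio ran from 0.00 in macrophage-like to 0.64 in pericyte-like cells, with 0.29 for mSC-like and 0.49 for tSC-like cells. Erythroid genes (5 markers, all 5 detected) moved the same way in the sums, from 1735 to 2909 CPM in GFP+ and from 6503 to 12122 in GFP-. These markers summed to 33.6 and 35.2 CPM in the mSC-like cells of WT and Sod1KO GFP+, and to 20.5 and 1595 CPM in their tSC-like cells. A single Sod1KO tSC-like cell held 47.6% to 59.8% of each marker's UMIs. In macrophage-like cells of GFP+ the markers summed to 12.8 and 6176 CPM. In cluster 11 of the tSC-like class they summed to 19.2 and 4872 CPM, beside 248 and 310 CPM of Prdx2. In cluster 7 of that class they summed to 30.8 and 314 CPM, beside 245 and 378 CPM of Prdx2. The part of red cell RNA in the Prdx2 values was not tested.

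**Figure D4:**
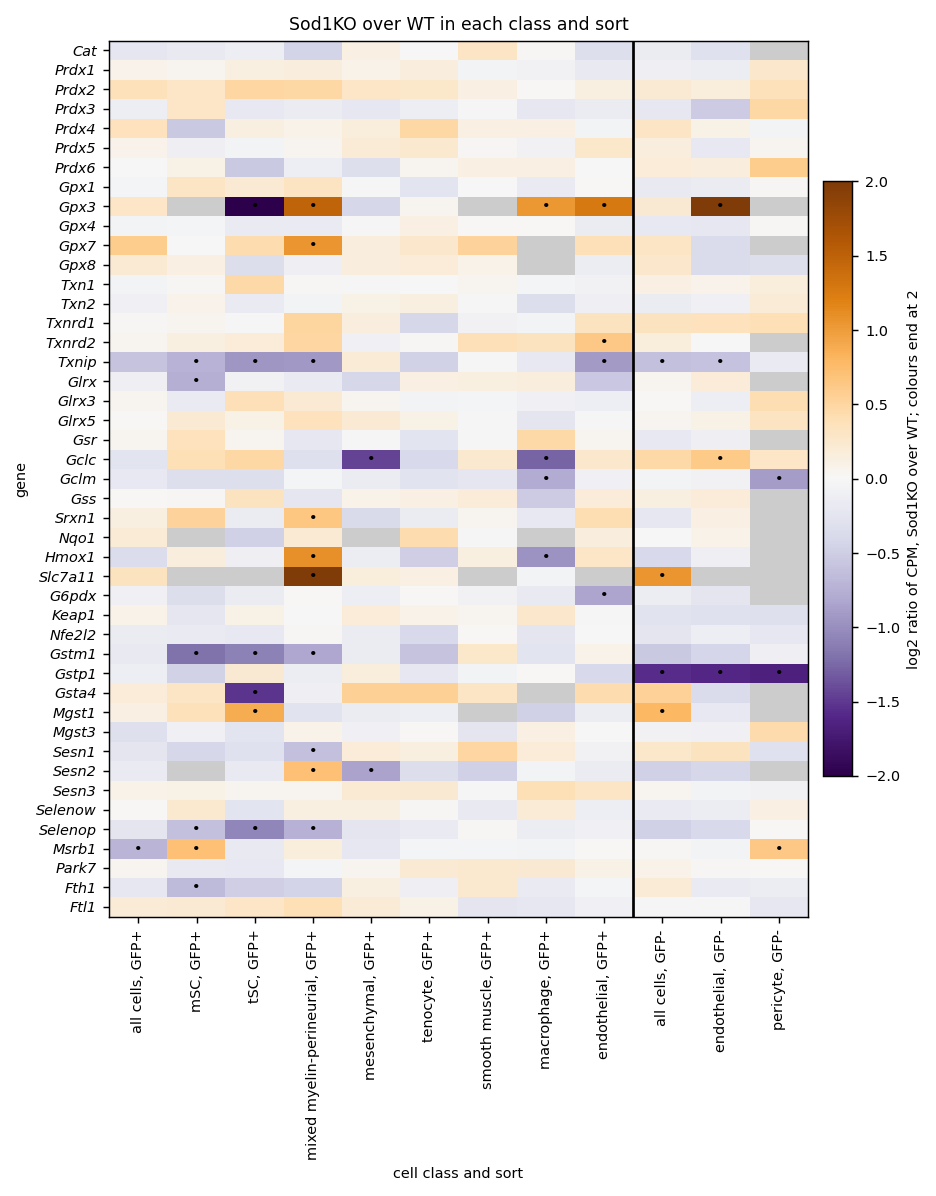
Log2 ratio of CPM, Sod1KO over WT, for each member (rows) in each class and sort with at least 50 cells in both libraries (columns), with dots past 1.5-fold and grey where UMIs were too few. Gstp1 is low in every GFP- column, at -1.57, -1.60 and -1.67, and Txnip is low in most but not all GFP+ columns.

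The GFP+ libraries held 1075 WT and 657 Sod1KO mSC-like cells. Of 41 members with at least 50 UMIs, 6 were past 1.5-fold (14.6%), where 8.08% of all genes were. Of these, 5 were lower in the library labelled Sod1KO, where 4.34% of all genes were lower. The median of the members was 0.02 and that of all genes -0.03. Gstm1, a mu-class glutathione transferase, had 35.4 CPM in WT and 15.4 in Sod1KO (-1.20, -1.61 to -0.81), 251 and 68 UMIs. Txnip had 224 and 135 CPM (-0.73, -0.87 to -0.59), Selenop 429 and 280 (-0.62, -0.71 to -0.52) and Fth1 9514 and 6030 (-0.66, -0.68 to -0.64). The interval of Glrx, with 6.92 and 4.09 CPM from 49 and 18 UMIs, reached from -1.63 to 0.05 and so did not leave out 0. Msrb1 was higher, with 27.2 CPM in WT and 44.7 in Sod1KO (0.72, 0.42 to 1.01). The step in Fth1 was not met by its partner, since Ftl1 had 749.8 CPM in WT and 868 in Sod1KO mSC-like cells (0.21, 0.15 to 0.27).

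With the stricter cell filter the mSC-like ratios of Gstm1 and Selenop came to -0.57 and -0.49, under the fold, while those of Fth1 (-0.80) and Msrb1 (1.02) were wider. The NRF2 branch stayed under 1.5-fold in mSC-like cells. Nfe2l2 had 120 and 107 CPM (-0.17), Keap1 27.2 and 23.4 (-0.22), Hmox1 18.2 and 20.2 (0.15), Gclc 27.1 and 35.7 (0.40), Gclm 68.5 and 55.0 (-0.32), Srxn1 7.76 and 11.1 (0.52) and Txnrd1 65.4 and 67.7 (0.05) in WT and Sod1KO. Nqo1 and Slc7a11 had too few UMIs there, 28 and 4 over both libraries. Prdx1 (601 and 616 CPM) and Gpx4 (593 and 575) had ratios of 0.04 and -0.04, with intervals that included 0.

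The tSC-like class held 387 WT and 887 Sod1KO cells. There 6 of 44 members were past 1.5-fold (13.6%), where 22.2% of all genes were, and 5 of the 6 were lower in the library labelled Sod1KO, where 12.9% of all genes were lower. The median of the members was -0.14 and that of all genes -0.04. Txnip had 196 CPM in WT and 101 in Sod1KO (-0.95, -1.07 to -0.83), Selenop 415 and 199 (-1.06, -1.15 to -0.98) and Gstm1 72.8 and 34.2 (-1.09, -1.29 to -0.89). Gsta4 had 13.0 and 4.50 CPM (-1.53) from 81 and 49 UMIs and Gpx3 18.4 and 4.13 (-2.16, -2.69 to -1.65), but 1 cell held 40.0% of the 115 WT Gpx3 UMIs. Under the alternatives the Gpx3 ratio ran from -5.49 to -0.47, the last, with per-cell means, under the fold. Mgst1 was higher, with 14.4 and 26.6 CPM (0.88, 0.54 to 1.24). Under the fold lay Nfe2l2 (76.5 and 66.7 CPM, -0.20), Gclc (35.9 and 49.8, 0.47), Gclm (68.8 and 54.8, -0.33), Prdx6 (283 and 194, -0.55) and Fth1 (2047 and 1455, -0.49).

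Different clusters made up the tSC-like class in the 2 libraries, so each was read alone. Cluster 11 held 312 WT and 215 Sod1KO cells, cluster 7 held 62 and 584, and cluster 30 held 13 and 88. In cluster 11, where 9.47% of all genes were past 1.5-fold, 6 of 42 members were, and the ratios of Txnip and Gstm1 were both -0.40 and that of Selenop -0.26. Past the fold there with intervals that left out 0 were Gpx3 (20.3 and 1.94 CPM, -3.38, from 115 and 6 UMIs), Gsta4 (13.1 and 6.48, -1.01) and Srxn1 (15.4 and 9.07, -0.76), lower in the library labelled Sod1KO. Gpx7 (24.9 and 37.6 CPM, 0.59) and Hmox1 (9.71 and 15.5, 0.68) were higher, with 52.1% of the Sod1KO Hmox1 UMIs in 1 cell. In cluster 7, where 30.0% of all genes were past the fold, 18 of 39 members were, 8 higher and 10 lower. There Txnip had 345 CPM in WT and 90.9 in Sod1KO (-1.92, -2.16 to -1.68), Fth1 4178 and 1472 (2.84-fold lower, log2 interval -1.57 to -1.44) and Gstm1 67.4 and 26.4 (-1.35, -1.88 to -0.79). Of the WT Fth1 UMIs of cluster 7, 17.1% lay in 1 cell. Without the top cell of each library the Fth1 log2 ratio was -1.33, outside that interval. Prdx2 had 245 and 378 CPM (0.63, 0.37 to 0.90) and Keap1 11.6 and 28.7 (1.31, 0.17 to 2.78) from 6 WT UMIs. Also lower there were Prdx6 (316 and 183 CPM, -0.79), Sesn1 (94.4 and 48.4, -0.96), Selenop (262 and 140.1, -0.90), Msrb1 (48.2 and 27.5, -0.81), Mgst3 (71.3 and 41.0, -0.80) and Gpx8 (102 and 63.2, -0.69). Also higher were Gclc (27.0 and 50.1 CPM, 0.89), Glrx5 (38.5 and 69.2, 0.85) and Sesn3 (34.7 and 55.9, 0.69), from 14, 20 and 18 WT UMIs. The steps in Txnip, Gstm1, Selenop and Fth1 were thus larger in cluster 7 than in cluster 11, while those of Gpx3 and Gsta4 stayed past the fold in cluster 11. Mgst1, higher over the tSC-like class, was under the fold in clusters 11 and 7 alike. It had 13.4 and 13.9 CPM in cluster 11 of WT and Sod1KO, and 27.0 and 33.2 in cluster 7.

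Markers of other cells moved with these values. In cluster 7 the 8 mSC markers summed to 4738 CPM in WT and 1769 in Sod1KO, and in cluster 11 to 1589 and 1386. In the tSC-like class Lyz2, of 7 macrophage markers, had 4678 CPM in WT and 429.7 in Sod1KO, while the other 6 stood at or below 2.75 CPM and Adgre1 at 0 in WT. The 5 erythroid markers summed to 20.5 and 1595 CPM. For each of these 5, a single Sod1KO cell held 47.6% to 59.8% of the UMIs. The part of these markers in the values of the members was not tested.

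Cluster 7 and cluster 11 also differed from each other within a library. Of 40 members measured in both libraries, 3 were higher in cluster 7 in both (all genes, 5.23%), namely Gss, Gstp1 and Mgst1, and 2 were lower in both (all genes, 7.97%), namely Hmox1 and Selenop. In WT cluster 7 Hmox1 rested on 1 UMI and Gss on 10, and the intervals of their WT ratios (-7.66 to 0.21 and -0.10 to 2.03) included 0. Mgst1 had 13.4 and 27.0 CPM in clusters 11 and 7 of WT (1.01) and 13.9 and 33.2 in Sod1KO (1.26). Selenop had 433 and 262 CPM in WT (-0.73) and 362 and 140.1 in Sod1KO (-1.37).

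**Figure D5:**
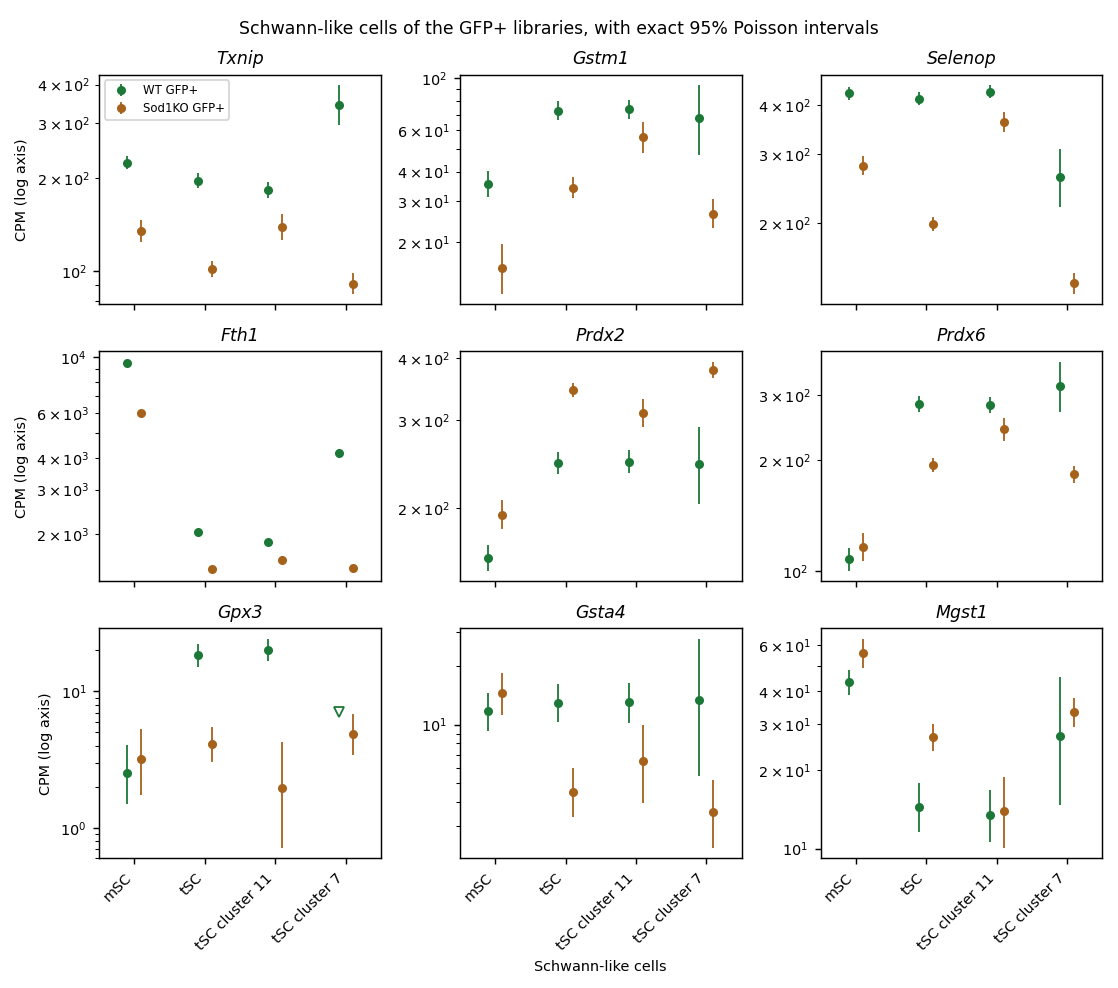
CPM of 9 members in mSC-like cells, tSC-like cells and clusters 11 and 7 of the GFP+ libraries on a log axis, with exact 95% Poisson intervals (counting error only). The WT and Sod1KO points of Txnip, Gstm1 and Fth1 lie farther apart in cluster 7 than in cluster 11.

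Endothelial-like cells were the 1 class with at least 50 cells in every library (326, 323, 516 and 1685 in the 4 libraries). In GFP+ 4 of 44 members were past 1.5-fold (9.09%), where 8.57% of all genes were, and in GFP- also 4 of 44, where 16.1% were. The medians were -0.02 and -0.11, beside -0.02 and -0.03 for all genes. Past the fold in the same direction in both sorts were 2 of 44 members, where 2.70% of all genes were, namely Txnip and Gpx3. Txnip had 604 and 320.5 CPM in WT and Sod1KO GFP+ (-0.92, -1.01 to -0.82) and 658 and 435 in GFP- (-0.60, -0.65 to -0.55), the second just past the fold. It was under the fold in 5 of 10 alternatives, the nearest to 0 with per-cell means (-0.46). Gpx3 had 13.5 and 32.5 CPM in GFP+ (1.27, 0.84 to 1.71) and 0.983 and 5.77 in GFP- (2.55, 1.47 to 3.89), the last from 7 and 138 UMIs, and had too few UMIs in a sort to be counted under 4 of the alternatives. The erythroid markers summed to 2446 and 11249 CPM in the endothelial-like cells of WT and Sod1KO GFP+ and to 2870 and 7363 in GFP-. The class pooled clusters 1, 9, 22, 24 and 27. In that order they held 170, 68, 40, 20 and 28 cells in WT GFP+ and 144, 52, 65, 19 and 43 in Sod1KO GFP+. In GFP- they held 327, 151, 10, 21 and 7 cells in WT and 1114, 349, 66, 92 and 64 in Sod1KO. The part of the markers and of this mix in these values was not tested.

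Gclc had 59.3 CPM in WT and 90.7 in Sod1KO GFP- endothelial-like cells (0.61, 0.46 to 0.77) and 72.1 and 86.4 in GFP+ (0.26, 0.05 to 0.47). G6pdx was lower in Sod1KO GFP+ endothelial-like cells, 10.3 and 5.78 CPM from 49 and 27 UMIs (-0.84, -1.57 to -0.13). Nfe2l2, Keap1, Nqo1, Hmox1, Gclm, Srxn1 and Txnrd1 were under 1.5-fold in this class in both sorts. Pericyte-like cells of GFP- had 3 of 30 members past the fold, where 19.0% of all genes were, with Gclm at 44.6 CPM in WT and 24.0 in Sod1KO (-0.89, -1.63 to -0.13) beside Gstp1.

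In macrophage-like cells of the GFP+ sort (132 and 214 cells) 4 of 41 members were past 1.5-fold (9.76%), where 11.7% of all genes were. Gclc had 105 CPM in WT and 43.4 in Sod1KO (-1.27, -1.58 to -0.97), Gclm 63.9 and 37.1 (-0.79, -1.14 to -0.43) and Hmox1 560.2 and 287 (-0.96, -1.08 to -0.84). Each rested in part on a single WT cell, which held 17.6% of the Gclc, 26.9% of the Gclm and 27.4% of the Hmox1 UMIs, and without the top cell of each library the ratios were -1.05, -0.47 and -0.61. The 2 subunits of glutamate-cysteine ligase were thus both lower in the Sod1KO macrophage-like cells, Gclm under the fold without that cell. Hmox1 was under the fold in 1 of 10 alternatives (-0.48). After thinning, 23.3% of WT and 22.5% of Sod1KO macrophage-like cells of GFP+ had a Hmox1 UMI. Gpx3 had 5.99 and 12.3 CPM (1.03), 46.2% of the Sod1KO UMIs in 1 cell. The erythroid markers summed to 12.8 and 6176 CPM in these cells.

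In mesenchymal-like cells of the GFP+ sort (184 and 352 cells) 2 of 44 members were past 1.5-fold, where 10.6% of all genes were. Gclc had 169 CPM in WT and 61.8 in Sod1KO (-1.45, -1.65 to -1.26), and Sesn2, a stress-induced sestrin, 8.51 and 4.69 (-0.86, -1.67 to -0.06) from 33 and 25 UMIs. The erythroid markers summed to 10.3 CPM in WT and 1689 in Sod1KO in these cells. The class was made up of cluster 4 (120 WT and 280 Sod1KO GFP+ cells) and cluster 20 (64 and 72). The part of the markers and of this mix in the values was not tested. Smooth muscle-like cells (555 and 393 cells) had 0 of 42 members past the fold, where 7.75% of all genes were, and tenocyte-like cells (502 and 1033) had 0 of 45, where 7.99% were. The medians of the members in these 2 classes were both 0.02. With no replicates these counts of 0 stand without a test.

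The mixed myelin-perineurial cells, which carried mSC and perineurial markers together and were given no cell type name (315 in WT and 323 in Sod1KO GFP+), had 10 of 45 members past 1.5-fold, where 17.3% of all genes were. Lower in the library labelled Sod1KO were Txnip (281 and 147 CPM, -0.93), Gstm1 (340.3 and 194, -0.81), Selenop (465 and 278, -0.74) and Sesn1 (84.7 and 54.9, -0.62). Txnip, Gstm1 and Selenop were past the fold downwards in the mSC-like and tSC-like cells of the same libraries too. All were under it in the tSC-like cluster 11 alone, and Gstm1 and Selenop also in mSC-like cells with the stricter cell filter. Higher in the mixed cells were Gpx7 (22.1 and 45.7 CPM, 1.05), Hmox1 (9.43 and 20.0, 1.09), Srxn1 (12.0 and 18.9, 0.65), Sesn2 (4.55 and 7.42, 0.70) and Gpx3 (6.34 and 17.7, 1.48). Slc7a11 had 0.813 and 7.03 CPM (3.11) from 5 and 54 UMIs, of which 1 Sod1KO cell held 64.8%. Gpx3 was at 0.22 without doublet removal.

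Of 64 further genes of the pathway, taken from a list and not from their values, 63 were found. Over all cells 4 of 61 with enough UMIs were past 1.5-fold in GFP+ (all genes, 14.9%) and 10 of 59 in GFP- (26.9%), the latter 9 higher and 1 lower in the library labelled Sod1KO. Gsto1, an omega-class transferase, was among them in both sorts, with 8.26 and 16.3 CPM in GFP+ (0.98) and 5.44 and 11.1 in GFP- (1.03). In mSC-like cells 3 of 44 were past the fold (all genes, 8.08%). In tSC-like cells 21 of 51 were (22.2%), 5 higher and 16 lower, but 6 of 49 in cluster 11 alone (9.47%) and 11 of 42 in cluster 7 alone (30.0%). The 16 included the theta-class transferases Gstt1 (38.8 and 14.0 CPM in WT and Sod1KO, -1.48), Gstt2 and Gstt3, the mu-class Gstm2, Gstm6 and Gstm7, and the methionine sulfoxide reductases Msrb2 and Msrb3. The 5 higher genes were Gsto1 (1.43), Ggct (1.39), Me1 (0.93), Ugdh (0.70) and Bach1, a repressor at NRF2 sites (107 and 173 CPM, 0.69). Selenom, an endoplasmic reticulum selenoprotein, was lower in both Schwann classes, with a ratio of -0.63 in mSC-like cells (335 and 216 CPM) and -1.05 in tSC-like cells (613 and 296 CPM).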

How the data were processed

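Viable GFP+ and GFP- cells of pooled muscles were profiled with 10x 3′ chemistry. The authors deposited filtered matrices of UMI counts per gene and cell, made with Cell Ranger (7.1.0 in the matrix headers, another version in the study's methods) on mm10 per the labels. The submitters' processing notes also name Seurat 4.30. The values are raw counts, and 0 columns were left unused. Cells with over 200 genes and under 10% mitochondrial UMIs were kept, and doublets were removed by a simulated-doublet score at 0.8% per 1000 barcodes. Counts per 10000 UMIs were logged, reduced to 30 components of 2000 variable genes without the members and the listed other pathway genes, and clustered (20 neighbours, Leiden resolution 1) into 36 clusters. A cluster was named when at least 3 markers of a list were met (20 CPM and 2-fold) and further conditions held. These concerned the share of the list met, its margin over other lists, the cluster's top genes, adipocyte genes and depth. Cluster 16, with 6 of 6 tenocyte markers met, stayed unnamed by these conditions. The limits were set after the clusters were seen.

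UMIs were summed per class and library and scaled to CPM, with exact Poisson intervals. Log2 ratios had exact conditional binomial intervals and shares exact binomial intervals, all at 95%, covering counting error only. A floor of 3 UMIs or cells marks a count of 0. A member was called past the fold at 1.5-fold (log2 0.585) with at least 50 UMIs over both libraries, and the same share of all genes is printed beside the first count of each comparison. With 1 library per group, no test was made and fits with replicates were not possible. The members and lists were chosen with earlier results of these data known. Named were, per comparison with at least 50 cells in both libraries, the 10 largest members in each direction past the fold with an interval leaving out 0 and, for levels, the class of highest CPM. A fixed set (Nfe2l2, Keap1, Nqo1, Hmox1, Gclc, Gclm, Srxn1, Slc7a11, Txnrd1, Txnip, Prdx1, Gpx1, Gpx4, Fth1, Ftl1) was named over all cells whatever its values. Within single classes only part of the fixed set was named. Prdx2 was singled out after its values were seen. Alternatives added after seeing the data were the class and cluster subsets and the top-cell removal. The scripts were tested on simulated counts. Tools were Python 3.11.15, with scipy 1.17.1 for the intervals, leidenalg 0.10.2 on igraph 0.11.9 for clusters, pandas 2.3.3, numpy 2.4.6 and scikit-learn 1.9.0 for tables and components, and matplotlib 3.10.9 for plots.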

Additional observations from a re-analysis of the deposited data

Results flagged for a closer look

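Gclc, the catalytic subunit of glutamate-cysteine ligase, differed in opposite directions between the sorts in mesenchymal-like cells. Its log2 ratio Sod1KO over WT was -1.45 in GFP+ (655 and 329 UMIs) and 2.04 in GFP- (11 and 644 UMIs), with intervals that leave out 0 in both. The WT GFP- value rests on 11 UMIs in 37 cells. The mesenchymal-like class was made up of clusters 4 and 20 in unlike mixes. Cluster 4 held 120, 280, 35 and 564 cells in WT GFP+, Sod1KO GFP+, WT GFP- and Sod1KO GFP-, and cluster 20 held 64, 72, 2 and 70. The difference between the sorts and the part of this mix in it were not tested.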

How the results depend on the processing

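No paired analysis was possible because each group has 1 library and the labels give no replicate numbers, and for the same reason no replicate could be left out. The count of members past 1.5-fold over all GFP+ cells was 1 and became 2 with median-of-ratios scaling, with the mean of per-cell CPM and with cells of named classes only, and 3 without doublet removal. That of tSC-like cells was 6 and became 18 in cluster 7 alone. The count in both sorts was 2 and became 1 with median-of-ratios scaling, per-cell means, a minimum of 200 UMIs, no doublet removal, 5% ambient RNA subtracted or Leiden resolution 0.5. The cause of these changes was not tested. The counts for all GFP- cells and mSC-like cells and the 31 shared highest classes stayed within 1.5 times under every alternative run, the GFP- count between 3 and 6 (4 as reported). Of 96 named log2 ratios, 28 were under the fold in at least 1 alternative. The direction turned in 5 of 789 values: Gpx3 in macrophage-like GFP+ cells with per-cell means (-0.90), Hmox1 in mesenchymal-like GFP- cells at resolution 0.5 (-0.29), Gpx3 in tenocyte-like GFP- cells without doublet removal (-1.30), and Hmox1 in cluster 11 with per-cell means (-0.42) and without the top cell (-0.22). Median-of-ratios scaling shifted pericyte-like and smooth muscle-like GFP- ratios by 0.11 and 0.12.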

Other observations

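Nqo1 stood at 81.6 CPM (69.3 to 95.4) in the 106 lymphatic endothelial-like cells of Sod1KO GFP-, against 8.53 CPM (7.40 to 9.78) in the other endothelial-like cells of the same library. The other libraries held at most 15 lymphatic endothelial-like cells, so the value could not be compared between genotypes. Gclc in the same cells stood at 141 CPM.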
